A study of Homo sapiens with 12 samples.

Results

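A set of 9 genes that mark mesenchymal cells or the epithelial-mesenchymal transition (EMT) was followed through RNA-seq of lung cancer cell lines over-expressing SRSF2, a splicing factor. The genes were listed by name, as EMT transcription factors, mesenchymal markers and matrix genes, with earlier results of these data known. The raw count table of 16599 genes held 8 of the 9: VIM, CDH2, ZEB1, ZEB2, FN1, LOXL2, THBS1 and COL5A1. SNAI2 was not analysed here. The study sequenced polyadenylated RNA of 2 established human lung cancer lines, H1650 and A549, each with and without SRSF2 over-expression. The 4 groups were H1650 cells over-expressing SRSF2, untreated H1650 cells, A549 cells over-expressing SRSF2 and untreated A549 cells, with 3 libraries each. The labels call the control cells untreated, with no explanation of the NC in the titles. How SRSF2 was introduced, and whether each SRSF2 group was 1 clone or a pool of cells, is not given in the sources used here. Since SRSF2 was not analysed here either, its over-expression was taken from the labels.

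In EMT, epithelial cells lose their junctions and gain the cytoskeleton, adhesion molecules and matrix of motile cells. The zinc finger proteins ZEB1, ZEB2 and SNAI2 repress epithelial genes such as E-cadherin by binding E-box motifs in their promoters. N-cadherin (CDH2) and the intermediate filament protein vimentin (VIM) then appear, and the cells secrete fibronectin (FN1), thrombospondin 1 (THBS1), type V collagen (COL5A1) and enzymes that crosslink collagen, such as LOXL2. Carcinoma lines hold different parts of this set.

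Promoter sequences are printed for VIM and ZEB2, which rose with SRSF2 in both lines, for THBS1, which fell in both, and for FN1, which moved in opposite directions. Each is the stretch of 250 bases before the only start that the RefSeq promoter table (GRCh38.p14) gives for the gene, 5′ to 3′ on the gene's strand. VIM lies at chr10:17227991-17228240 on the plus strand, ZEB2 at chr2:144520120-144520369 on the minus strand, FN1 at chr2:215436069-215436318 on the minus strand and THBS1 at chr15:39580829-39581078 on the plus strand. Capitals mark the GC box GGGCGG or its complement CCGCCC, and the cyclic AMP response element TGACGTCA.
VIM: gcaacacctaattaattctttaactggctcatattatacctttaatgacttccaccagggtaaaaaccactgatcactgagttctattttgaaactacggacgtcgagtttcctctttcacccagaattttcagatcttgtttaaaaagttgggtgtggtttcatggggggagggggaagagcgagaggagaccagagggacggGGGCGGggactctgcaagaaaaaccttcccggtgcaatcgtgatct
ZEB2: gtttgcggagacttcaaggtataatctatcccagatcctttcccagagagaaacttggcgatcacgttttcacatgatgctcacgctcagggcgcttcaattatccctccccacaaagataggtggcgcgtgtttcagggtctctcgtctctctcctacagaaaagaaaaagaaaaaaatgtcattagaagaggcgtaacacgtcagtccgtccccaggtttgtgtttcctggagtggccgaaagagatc
FN1: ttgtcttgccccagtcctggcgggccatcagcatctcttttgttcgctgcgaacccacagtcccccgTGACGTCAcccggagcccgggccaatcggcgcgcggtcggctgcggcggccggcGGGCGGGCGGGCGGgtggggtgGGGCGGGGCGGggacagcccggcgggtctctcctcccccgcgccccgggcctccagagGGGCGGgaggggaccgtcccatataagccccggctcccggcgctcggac
THBS1: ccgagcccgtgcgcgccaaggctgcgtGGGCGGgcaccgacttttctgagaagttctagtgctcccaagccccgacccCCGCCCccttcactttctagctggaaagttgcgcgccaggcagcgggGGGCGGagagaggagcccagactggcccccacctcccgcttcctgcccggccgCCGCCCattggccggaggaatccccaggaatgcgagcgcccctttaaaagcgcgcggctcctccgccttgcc

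GC content of these 4 windows was 46% for VIM, 48% for ZEB2, 76.4% for FN1 and 69.6% for THBS1. FN1 held 6 GC boxes, some of them overlapping, THBS1 held 4 and VIM 1, while none was found in the ZEB2 window. A GC box was present in 42.6% of 35116 RefSeq promoter windows of this length, searched on both strands. The FN1 window also held TGACGTCA, 183 bases before the start, a motif found in 1.65% of the windows. The E-box CAGGTG (17.5% of windows), the AP-1 site TGANTCA (6.57%) and the TATA box letters TATAAA (10.7%) were found in none of the 4 windows. These matches describe the letters of the windows only. CDH2, ZEB1 and COL5A1 have several starts in the table and were not searched.

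Total counts ran from 23876899 to 32079027 per library, so that 3 counts corresponded to 0.126 to 0.0935 counts per 1e6 counts (CPM). The lines separated on the first principal component (89.1% of the variance). SRSF2 and untreated libraries separated on the second (5.58%), and H1650 SRSF2 replicate 3 lay nearer the untreated libraries on it (-33.8) than replicates 1 and 2 (-45.2 and -42.2). All 6 epithelial markers chosen for a check of cell identity were present, with summed levels of 9325 to 9843 CPM in H1650 SRSF2, 10194 to 10382 CPM in untreated H1650, 9497 to 9575 CPM in A549 SRSF2 and 9818 to 10459 CPM in untreated A549 libraries. These similar sums hide differences between the lines. EPCAM, CDH1 and KRT19 were higher in untreated H1650 than in untreated A549 (edgeR log2 fold changes of 5.7, 5.1 and 3.7). KRT7, KRT8 and KRT18 were lower there (-0.49, -0.25 and -0.74). Of 8 fibroblast markers only COL1A1 was in the table, at 4.74 to 7.2 CPM in H1650 SRSF2, 9.52 to 10.7 CPM in untreated H1650, 8.0 to 9.8 CPM in A549 SRSF2 and 11.6 to 14.6 CPM in untreated A549 libraries. All pairs of H1650 SRSF2 replicates differed more (chi-square per degree of freedom 5.11 to 7.78) than pairs in the other groups (2.24 to 3.93). The labels do not say that replicates came from separate cultures, so the spread behind each p-value may be technical. In bulk RNA, more cells expressing a gene and more RNA per cell cannot be told apart. Except for the markers, CPM values below are scaled by edgeR's TMM factors and given as mean ± SD of 3 libraries.

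In H1650 cells over-expressing SRSF2, VIM, ZEB1, ZEB2 and FN1 rose and THBS1, COL5A1 and LOXL2 fell. In A549 cells, VIM, ZEB1, ZEB2, COL5A1 and LOXL2 rose and FN1 and THBS1 fell. A gene was called at an edgeR adjusted p under 0.05. In H1650, 7 of the 8 members were called, while 62.3% of all 15991 genes tested were. In A549, 7 of 8 were called, against 32.3% of all genes. Since the members were listed with earlier results known, these shares describe them and are no test of the set. Members called higher in both lines numbered 3 (9.44% of all genes), and 1 was lower in both (8.69%). Members higher in A549 and lower in H1650 numbered 2 (3.13%), and 1 was lower in A549 and higher in H1650 (2.84%). SRSF2 libraries lay wholly above untreated ones for 4 members in H1650 (32.1% of all genes) and 6 in A549 (22.7%), and wholly below for 3 in H1650 (32.6%) and 2 in A549 (23%). The median absolute log2 fold change of the members was 0.89 in H1650 and 0.35 in A549, beside 0.36 and 0.16 over all genes tested in the same lines. Without H1650 SRSF2 replicate 3, which stood apart on the second principal component, 7 members were again called in H1650. Their log2 fold changes were then 1.03 for VIM, 1.60 for ZEB1, 2.59 for ZEB2, 1.23 for FN1, -0.44 for THBS1, -0.42 for COL5A1 and -0.46 for LOXL2.

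**Figure D1:**
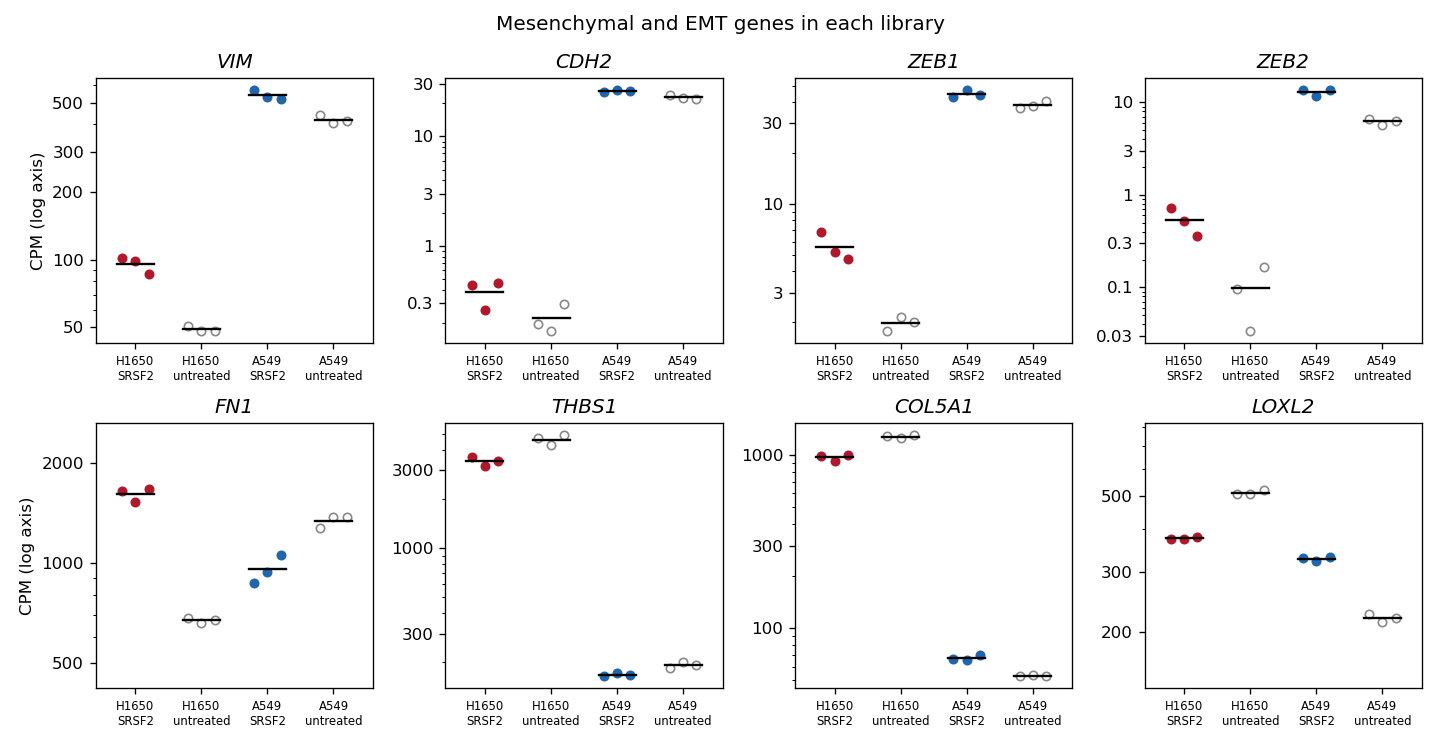
Level of each of the 8 genes in the 12 libraries, in CPM on a log axis, with 1 point per library and a line at the mean of each group. VIM, ZEB1, ZEB2 and CDH2 lie higher in all A549 libraries than in all H1650 libraries, THBS1, COL5A1 and LOXL2 lie higher in all H1650 libraries, and the groups of FN1 interleave between lines.

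ZEB1 (ENSG00000148516, GRCh38 chromosome 10, 31318495 to 31529814, plus strand), a zinc finger repressor of epithelial genes, was low in H1650 and rose there with SRSF2. Its level was 6.85, 5.22 and 4.73 CPM in H1650 SRSF2 libraries, against 1.77, 2.14 and 2.02 CPM in untreated H1650 libraries. The groups did not overlap, and these values rest on 457 counts in SRSF2 and 180 in untreated libraries. The fold change was 2.81 (log2 1.49, SE 0.14, edgeR adjusted p = 2.46e-11). In A549, ZEB1 had 43.0, 46.9 and 44.0 CPM in SRSF2 libraries, against 36.7, 38.1 and 40.4 CPM in untreated libraries. All SRSF2 libraries lay above all untreated ones, but the change was small, with a fold change of 1.16 (log2 0.22, SE 0.07, edgeR adjusted p = 0.0128). This A549 call was lost without A549 SRSF2 replicate 2 (log2 0.18, edgeR adjusted p = 0.095) and without A549 untreated replicate 1 (log2 0.19, edgeR adjusted p = 0.0757).

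ZEB2 (ENSG00000169554, GRCh38 chromosome 2, 144364364 to 144524583, minus strand), the paralogue of ZEB1, showed the largest fold rise of the members in each line. It was barely detected in H1650, with 18, 14 and 11 counts in SRSF2 libraries and 3, 1 and 5 counts in untreated libraries. These were 0.717, 0.522 and 0.359 CPM in H1650 SRSF2 libraries, against 0.0964, 0.0335 and 0.165 CPM in untreated H1650 libraries. Every SRSF2 library was above every untreated one, yet the untreated values stand at or near the level of 3 counts. The fitted fold change was 5.1 (log2 2.35, SE 0.47, 95% interval 1.39 to 3.31, edgeR adjusted p = 5.50e-05). The ratio of summed counts, 43 against 9, was 5.28 with an exact 95% interval of 2.54 to 12.3 that covers counting error only. On log2(FPKM + 1) and log2(FPKM + 0.1) the H1650 call was lost (limma adjusted p = 0.476 and 0.244), with mean FPKM values of 0.00358 in SRSF2 and 0.000699 in untreated H1650 libraries lying below both pseudocounts. In A549, ZEB2 was measured well above the floor, at 13.5, 11.8 and 13.5 CPM in SRSF2 libraries, against 6.7, 5.65 and 6.37 CPM in untreated libraries. The A549 groups did not overlap, and the level about doubled, with a fold change of 2.07 (log2 1.05, SE 0.12, edgeR adjusted p = 1.43e-08).

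VIM (ENSG00000026025, GRCh38 chromosome 10, 17228259 to 17237593, plus strand) encodes vimentin, the intermediate filament of mesenchymal cells. It had 102, 98.6 and 86.5 CPM in H1650 SRSF2 libraries, against 50.5, 48.3 and 48.0 CPM in untreated H1650 libraries. No library of one group reached the other, and the fold change was 1.95 (log2 0.97, SE 0.05, edgeR adjusted p = 1.23e-17). In A549, VIM had 566, 527 and 520.3 CPM in SRSF2 libraries, against 442, 405 and 413 CPM in untreated libraries. The A549 groups were also apart, with a smaller fold change of 1.28 (log2 0.36, SE 0.04, edgeR adjusted p = 8.28e-08). Even with SRSF2, H1650 held 22.8% of the VIM level of untreated A549 cells.

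CDH2 (ENSG00000170558, GRCh38 chromosome 18, 27950966 to 28177446, minus strand) encodes N-cadherin, the adhesion molecule that takes the place of E-cadherin in many mesenchymal-like cells. It was not called in either line. It passed the expression filter only through its level in A549, and was filtered out with H1650 fitted alone. It had 11, 7 and 14 counts in H1650 SRSF2 libraries and 6, 5 and 9 counts in untreated H1650 libraries. The corresponding levels were 0.438, 0.261 and 0.457 CPM with SRSF2, against 0.193, 0.167 and 0.298 CPM without, and the groups overlapped. The log2 fold change in H1650 was 0.81 (SE 0.38, 95% interval 0.04 to 1.58, edgeR adjusted p = 0.0662). In A549, CDH2 had 25.3, 26.3 and 26.0 CPM in SRSF2 libraries, against 23.8, 22.5 and 22.1 CPM in untreated libraries. All A549 SRSF2 libraries were higher, by a log2 fold change of 0.18 (SE 0.07, 95% interval 0.03 to 0.33, edgeR adjusted p = 0.0544). Both values lie close to the threshold. In H1650, CDH2 passed it without SRSF2 replicate 2 (log2 1.02, edgeR adjusted p = 0.0309) and without untreated replicate 3 (log2 1.08, edgeR adjusted p = 0.038). In A549 it passed with the line fitted alone (edgeR adjusted p = 0.0155), and with H1650 SRSF2 replicate 1, 2 or 3 or H1650 untreated replicate 3 left out of the shared fit (edgeR adjusted p = 0.0395 to 0.0489). It also passed on log2(FPKM + 1) and log2(FPKM + 0.1) (limma adjusted p = 0.00196 and 0.00452). Its mean FPKM values in A549, 0.117 with SRSF2 and 0.104 without, lie below the first pseudocount and near the second.

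FN1 (ENSG00000115414, GRCh38 chromosome 2, 215360440 to 215436172, minus strand) encodes fibronectin, a matrix glycoprotein through which cells attach to their surroundings. It moved in opposite directions in the lines. It had 1641, 1526 and 1668 CPM in H1650 SRSF2 libraries, against 685, 660.3 and 672 CPM in untreated H1650 libraries. The groups were far apart, with a fold change of 2.4 (log2 1.26, SE 0.05, edgeR adjusted p = 2.82e-22). In A549, FN1 had 872, 937 and 1059.5 CPM in SRSF2 libraries, against 1275, 1372 and 1371 CPM in untreated libraries. All A549 SRSF2 libraries lay below all untreated ones, and the fold change was 0.714 (log2 -0.49, SE 0.05, edgeR adjusted p = 2.12e-10). FN1 is known for alternatively spliced exons, which counts per gene do not separate.

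THBS1 (ENSG00000137801, GRCh38 chromosome 15, 39581079 to 39599466, plus strand), a matricellular glycoprotein that can activate latent TGF-beta, fell in both lines. It had 3618, 3194 and 3426 CPM in H1650 SRSF2 libraries, against 4685, 4254 and 4886 CPM in untreated H1650 libraries. Its groups did not overlap, and the fold change was 0.741 (log2 -0.43, SE 0.04, edgeR adjusted p = 3.52e-11). In A549, THBS1 had 164, 171 and 167 CPM in SRSF2 libraries, against 185, 200 and 193 CPM in untreated libraries. The A549 groups were apart by a smaller step, a fold change of 0.867 (log2 -0.21, SE 0.04, edgeR adjusted p = 4.35e-04).

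COL5A1 (ENSG00000130635, GRCh38 chromosome 9, 134641774 to 134844843, plus strand) encodes a chain of type V collagen, which helps to start and regulate collagen fibrils. It had 989.7, 927 and 1003 CPM in H1650 SRSF2 libraries, against 1283, 1248 and 1296 CPM in untreated H1650 libraries. It fell there without overlap, with a fold change of 0.763 (log2 -0.39, SE 0.03, edgeR adjusted p = 5.85e-12). In A549, COL5A1 had 66.4, 65.4 and 69.8 CPM in SRSF2 libraries, against 52.9, 53.4 and 52.7 CPM in untreated libraries. It rose there, again without overlap, with a fold change of 1.27 (log2 0.34, SE 0.04, edgeR adjusted p = 5.80e-08).

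LOXL2 (ENSG00000134013, GRCh38 chromosome 8, 23297189 to 23425328, minus strand), a lysyl oxidase that crosslinks collagen, also moved in opposite directions. It had 374, 374 and 379.8 CPM in H1650 SRSF2 libraries, against 508, 506 and 521 CPM in untreated H1650 libraries. It fell there to a fold change of 0.734 (log2 -0.45, SE 0.03, edgeR adjusted p = 1.21e-13). In A549, LOXL2 had 329, 322 and 331 CPM in SRSF2 libraries, against 226, 214 and 219 CPM in untreated libraries. It rose there by a fold change of 1.49 (log2 0.58, SE 0.03, edgeR adjusted p = 3.77e-15), the largest rise in A549 among the members after that of ZEB2.

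**Figure D2:**
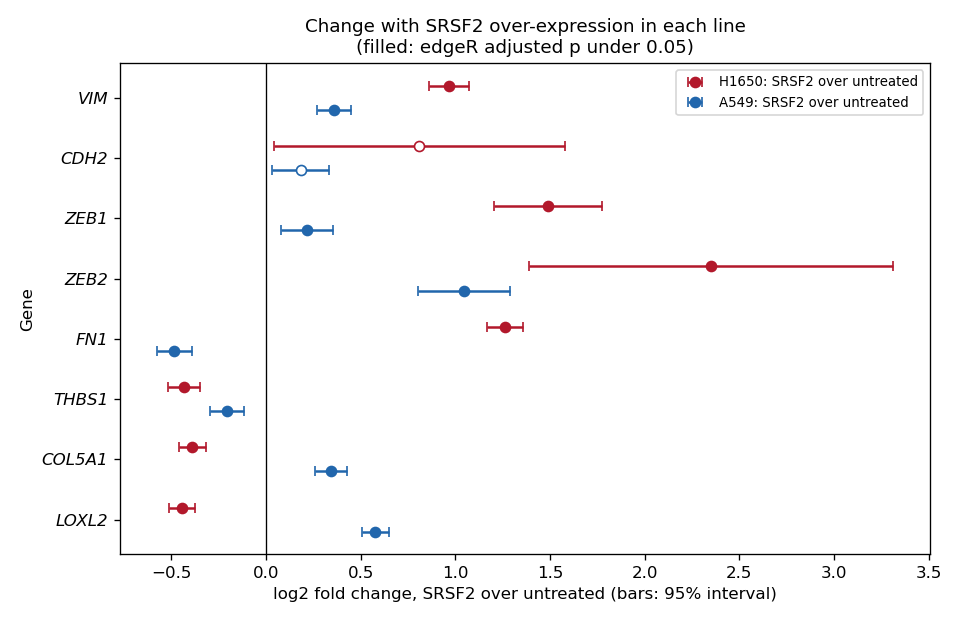
Log2 fold change of each gene, SRSF2 over untreated, in H1650 (red, upper point) and A549 (blue, lower point). Bars are 95% intervals, and filled points passed an edgeR adjusted p of 0.05. FN1 is at 1.26 in H1650 and -0.49 in A549, while COL5A1 and LOXL2 are at -0.39 and -0.45 in H1650 and at 0.34 and 0.58 in A549.

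The responses of the lines were compared as the difference of the fold changes, H1650 minus A549, in the same model. The difference was called for 7 of the 8 members, against 47.5% of all genes tested. FN1 had a log2 difference of 1.75 (SE 0.07, edgeR adjusted p = 3.22e-21). LOXL2 differed by -1.02 (SE 0.05, edgeR adjusted p = 2.24e-18) and COL5A1 by -0.73 (SE 0.05, edgeR adjusted p = 2.59e-13), so that these 3 genes diverged in sign and in the test of the difference. Genes that rose in both lines rose more in H1650, with a log2 difference of 1.27 for ZEB1 (SE 0.16, edgeR adjusted p = 2.63e-08) and 0.61 for VIM (SE 0.07, edgeR adjusted p = 3.70e-09). THBS1 fell more in H1650, by a log2 difference of -0.23 (SE 0.06, edgeR adjusted p = 0.00215). The difference for ZEB2 was 1.30 (SE 0.51, edgeR adjusted p = 0.0323) and rests on the few counts in H1650. It lost its call without H1650 SRSF2 replicate 1 or 2 (edgeR adjusted p = 0.116 and 0.0501) and without H1650 untreated replicate 1 or 2 (edgeR adjusted p = 0.0768 and 0.165). On log2(FPKM + 1) the differences of ZEB2 and ZEB1 turned negative (-0.06 and -0.01), where the means of both genes lie below the pseudocount in all 4 groups. On log2(FPKM + 0.1) the difference was -0.37 for ZEB2, and that of ZEB1 lost its call (0.05, limma adjusted p = 0.43). The negative ZEB2 differences were themselves called, with limma adjusted p = 2.94e-05 and 3.57e-05 at pseudocounts of 1 and 0.1. For CDH2 the log2 difference of 0.63 (SE 0.38, edgeR adjusted p = 0.193) was not called, and its 95% interval ran from -0.16 to 1.41.

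The lines themselves held different parts of the set. Between untreated lines all 8 members were called (82.4% of all genes were), 3 higher (40.1%) and 5 lower in H1650 (42.3%). CDH2 and ZEB2 passed the expression filter only through A549, where they are high. Their lower calls and lack of overlap between lines, here and with SRSF2, were thus largely fixed by the filter. No member's libraries overlapped between the untreated lines, whereas 40.9% of all genes lay wholly above and 43.1% wholly below in H1650. The transcription factors, vimentin and N-cadherin were lower in H1650 than in A549, with log2 fold changes of -6.67 for CDH2, -5.92 for ZEB2, -4.28 for ZEB1 and -3.10 for VIM. The values of CDH2 and ZEB2 rest on 20 and 9 counts in untreated H1650 libraries. The secreted matrix genes other than FN1 were higher in H1650, by 4.59 for COL5A1, 4.58 for THBS1 and 1.22 for LOXL2 on the log2 scale. FN1 was lower in untreated H1650 than in untreated A549 (log2 -0.99), and this was the member with the largest edgeR adjusted p (2.74e-20). Between the SRSF2 groups, again all 8 were called (84.2% of all genes), 4 higher (40.5%) and 4 lower (43.7%) in H1650, and their libraries did not overlap (40.5% of all genes wholly above, 43.5% wholly below). FN1 was then higher in H1650 (log2 0.75, SE 0.05, edgeR adjusted p = 6.53e-17), and the lead of H1650 in LOXL2 was 0.20 (SE 0.03, edgeR adjusted p = 2.46e-06). The 4 genes higher in A549 kept that order with SRSF2, at log2 -6.04 for CDH2, -4.62 for ZEB2, -3.01 for ZEB1 and -2.49 for VIM.

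Ordered by level over the 4 groups, VIM, ZEB1, ZEB2 and CDH2 all ran from A549 SRSF2 through untreated A549 and H1650 SRSF2 down to untreated H1650. LOXL2 and COL5A1 ran from untreated H1650 through H1650 SRSF2 and A549 SRSF2 down to untreated A549, and THBS1 from untreated H1650 through H1650 SRSF2 and untreated A549 down to A549 SRSF2. FN1 was highest in H1650 SRSF2 (1611 ± 75.4 CPM), followed by untreated A549 (1339 ± 55.6 CPM), A549 SRSF2 (956 ± 95.2 CPM) and untreated H1650 (672 ± 12.1 CPM). The smallest of these FN1 steps, H1650 SRSF2 over untreated A549, was a log2 fold change of 0.27 (SE 0.05, edgeR adjusted p = 2.10e-06). Of all genes, 84.6% were called in that comparison and 82.6% between untreated H1650 and A549 SRSF2. All neighbouring groups in these orders passed the edgeR test except both CDH2 pairs within a line.

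The rise of ZEB1, ZEB2 and VIM in H1650 was set beside a measure of A549 RNA in these libraries. ZEB1 gained 9.44%, ZEB2 6.96% and VIM 11.2% of its level in untreated A549. For CDH2, which was not called in H1650, the change was 0.728%. For 25 genes at 0 counts in all untreated H1650 libraries and at 5 CPM or more in untreated A549, the H1650 SRSF2 libraries held 9, 22 and 17 counts. These were 0.0477%, 0.111% and 0.0753% of the level of the same genes in untreated A549, and the highest exact 95% limit was 0.167%. These 25 genes were picked for their absence from untreated H1650. The ratio of summed CDH2 counts in H1650 was 1.77, and its exact 95% interval of 0.98 to 3.26 includes no change. The part of A549 RNA in the rises was not tested.

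To compare levels between genes, CPM was divided by the length of the merged exons in kb. On this scale THBS1 was the most abundant member in H1650, at 373 ± 23.2 CPM per kb in SRSF2 and 503 ± 35.3 CPM per kb in untreated cells. In A549, VIM led at 104 ± 4.81 CPM per kb in SRSF2 and 81.4 ± 3.74 CPM per kb in untreated cells. ZEB2 was lowest in every group, with 0.0213 ± 0.00716 CPM per kb in H1650 SRSF2, 0.00393 ± 0.00263 in untreated H1650, 0.516 ± 0.0394 in A549 SRSF2 and 0.249 ± 0.0213 in untreated A549 cells. ZEB1 stood above ZEB2 in all groups, at 0.647 ± 0.128 CPM per kb in H1650 SRSF2, 0.228 ± 0.0221 in untreated H1650, 5.16 ± 0.233 in A549 SRSF2 and 4.44 ± 0.218 in untreated A549 cells. Some ranks depend on the length used. With the longest coding transcript, CDH2 and ZEB1 changed places in both A549 groups, and FN1 and LOXL2 in A549 SRSF2 cells. By the deposited FPKM, CDH2 rather than ZEB2 was lowest in H1650 SRSF2 cells.

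**Figure D3:**
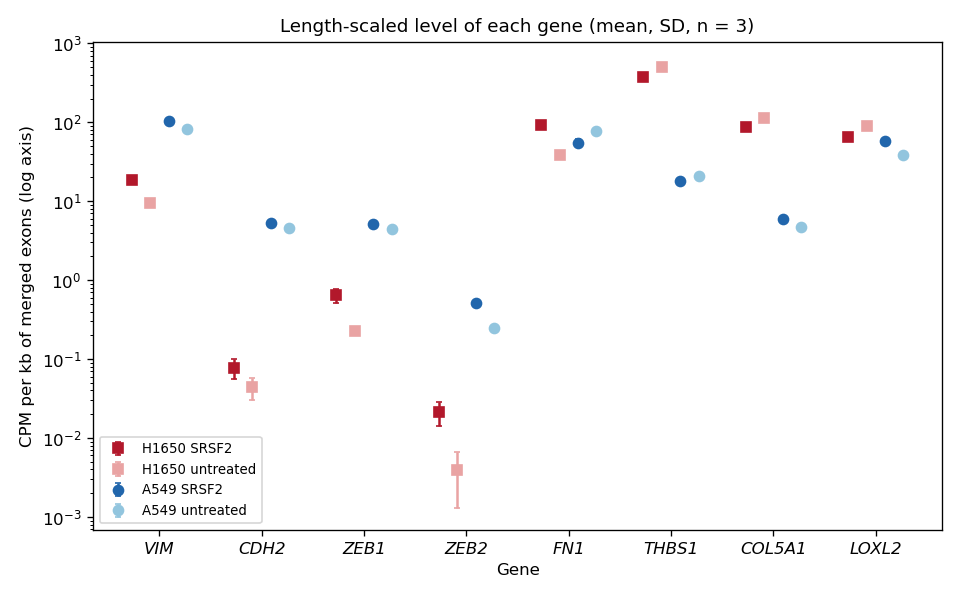
CPM per kb of merged exons of each gene on a log axis, as mean and SD of 3 libraries per group (squares H1650, circles A549, dark SRSF2, light untreated). THBS1 is highest in H1650 at 373 (SRSF2) and 503 (untreated), VIM is highest in A549 at 104 and 81.4, and ZEB2 is lowest in all 4 groups.

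Genes of the wider EMT programme were followed in 8 fixed lists. Over all genes tested, 31% were called higher and 31.3% lower in H1650, and 16.4% and 15.9% in A549. Among EMT transcription factors, which include ZEB1 and ZEB2, 9 of 11 tested rose and 1 fell in H1650 (median log2 fold change 0.65). In A549, 4 rose and 2 fell (median 0.18). The number called higher in H1650 was 8 with RLE scaling, no scaling factor, DESeq2 or no filter, and 6 with limma on log2(FPKM + 1). The medians over all genes were 0.00 in both lines. Without A549 SRSF2 replicate 2 the A549 calls in this list numbered 2, and without A549 untreated replicate 1 they numbered 3. SNAI1, the Snail repressor of E-cadherin, had 82.6 ± 9.59 CPM in H1650 SRSF2 and 24.8 ± 1.56 CPM in untreated H1650 cells (log2 1.73, SE 0.07, edgeR adjusted p = 5.59e-21). In A549 it was scarce, at 3.42 ± 0.286 CPM with SRSF2 and 3.89 ± 0.532 CPM without (log2 -0.18, edgeR adjusted p = 0.381), and the difference of 1.91 between lines was called (edgeR adjusted p = 7.64e-12). TCF3, which encodes the E proteins E12 and E47, fell in H1650 (log2 -0.52, edgeR adjusted p = 7.14e-12) and in A549 (log2 -0.13, edgeR adjusted p = 0.0249). SOX4 rose in H1650 (log2 0.65, edgeR adjusted p = 1.43e-08) and had a log2 fold change of 0.19 in A549 (edgeR adjusted p = 0.0501).

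Among 12 genes of the mesenchymal cytoskeleton and adhesion, which include VIM and CDH2, 4 rose and 4 fell in H1650, near the shares over all genes there (31% and 31.3%). In A549, 6 rose and none fell (16.4% and 15.9% of all genes). NT5E, the ecto-5′-nucleotidase CD73, had 97.1 ± 0.966 CPM in H1650 SRSF2 and 34.7 ± 2.0 CPM in untreated H1650 cells (log2 1.48, edgeR adjusted p = 1.40e-23), with a smaller rise in A549 (log2 0.39, edgeR adjusted p = 2.62e-07). The receptor tyrosine kinase AXL had 407 ± 13.5 CPM in A549 SRSF2 and 208 ± 15.0 CPM in untreated A549 cells (log2 0.97, edgeR adjusted p = 2.88e-18). It rose less in H1650 (log2 0.62, edgeR adjusted p = 1.83e-14), with a difference of -0.35 (edgeR adjusted p = 1.71e-05). The hyaluronan receptor CD44 rose in H1650 (log2 0.54) and in A549 (log2 0.36), and the actin-binding protein gene CALD1 fell in H1650 (log2 -0.36, edgeR adjusted p = 3.20e-10).

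Matrix genes moved both ways. Of 15 matrix and matricellular genes, which include FN1 and THBS1, 6 rose and 7 fell in H1650 (31% and 31.3% of all genes). In A549, 6 of them rose and 5 fell (16.4% and 15.9% of all genes). The matricellular gene CCN1 had 143 ± 3.56 CPM in A549 SRSF2 and 60.1 ± 4.32 CPM in untreated A549 cells (log2 1.25, SE 0.04, edgeR adjusted p = 1.94e-21). It rose less in H1650 (log2 0.40, edgeR adjusted p = 2.98e-11), and the fibrillin gene FBN1 fell in H1650 (log2 -0.80, edgeR adjusted p = 2.80e-16) and rose in A549 (log2 0.28, edgeR adjusted p = 0.00277).

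Among 16 collagen genes, which include COL5A1, 4 rose and 7 fell in H1650 (31% and 31.3% of all genes). In A549, 8 rose and 1 fell (16.4% and 15.9% of all genes). In 7 of the 16 the difference between lines was called, each time lower in H1650, and in none was it called higher (24% and 23.5% of all genes). COL12A1, a fibril-associated collagen, fell in H1650 (log2 -0.93, edgeR adjusted p = 4.41e-17) and rose in A549 (log2 0.33, edgeR adjusted p = 8.34e-05), as did COL16A1 (log2 -0.78 in H1650 and 0.48 in A549). COL17A1, a transmembrane collagen of epithelial hemidesmosomes, rose by 1.04 on the log2 scale in both lines, to 787 ± 84.7 CPM in H1650 SRSF2, against 382 ± 7.62 CPM in untreated H1650 cells. Of 15 genes for collagen crosslinking and processing, which include LOXL2, 4 rose and 7 fell in H1650 (31% and 31.3% of all genes). In A549, 6 rose and 2 fell (16.4% and 15.9% of all genes), with 5 calls without untreated replicate 3. LOXL3, another lysyl oxidase, rose in H1650 to 15.9 ± 0.836 CPM with SRSF2, against 3.8 ± 0.525 CPM without (log2 2.06, edgeR adjusted p = 1.40e-15), opposite in direction to LOXL2 in that line.

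**Figure D4:**
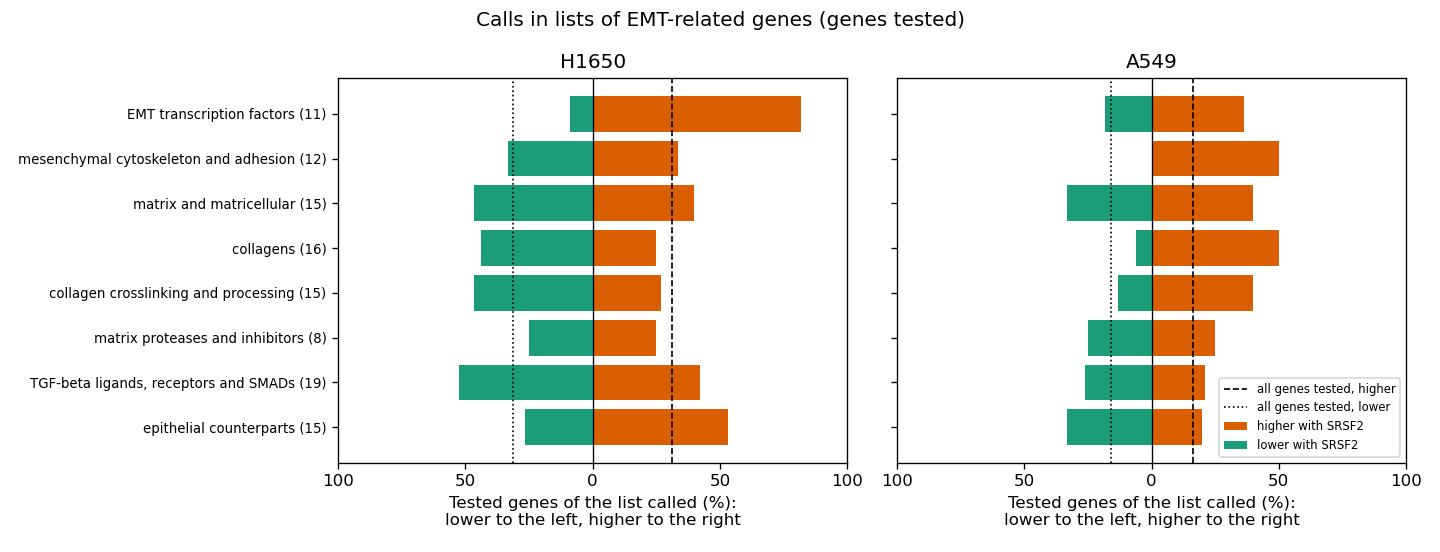
Share of the tested genes of each fixed list called higher (orange, to the right) or lower (teal, to the left) with SRSF2, in percent, for H1650 and A549. Dashed and dotted lines mark the share of all genes called higher and lower, 31% and 31.3% in H1650 and 16.4% and 15.9% in A549, and 9 of 11 EMT transcription factors lie to the right in H1650.

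Of 8 matrix proteases and inhibitors, 2 rose and 2 fell in each line, too few to set apart from the shares over all genes (31% and 31.3% in H1650, 16.4% and 15.9% in A549). The urokinase receptor gene PLAUR had 1384 ± 72.8 CPM in H1650 SRSF2 and 289.7 ± 20.2 CPM in untreated H1650 cells (log2 2.26, SE 0.04, edgeR adjusted p = 5.95e-30). Its rise in A549 was small (log2 0.17, edgeR adjusted p = 0.00838), and the gelatinase gene MMP2 fell in H1650 (log2 -0.22) and in A549 (log2 -0.41). Of 19 genes for TGF-beta ligands, receptors and SMADs, 8 rose and 10 fell in H1650, and 4 rose and 5 fell in A549. BAMBI, a pseudoreceptor that dampens the pathway, rose in H1650 (log2 1.39, edgeR adjusted p = 2.02e-18) and fell in A549 (log2 -0.34, edgeR adjusted p = 4.85e-04). ID2, an inhibitor of E proteins, moved the same way, with log2 fold changes of 1.38 in H1650 (edgeR adjusted p = 3.55e-17) and -0.40 in A549 (edgeR adjusted p = 3.61e-08). Of the genes for proteins that bind latent TGF-beta, LTBP3 rose in H1650 (log2 0.79, edgeR adjusted p = 2.89e-19) and LTBP1 fell there (log2 -1.07, edgeR adjusted p = 9.93e-19).

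Epithelial genes moved in both directions in each line. Of 15 tested, 8 rose and 4 fell in H1650 (median log2 fold change 0.09), and 3 rose and 5 fell in A549 (median -0.02). Shares over all genes were 31% and 31.3% in H1650 and 16.4% and 15.9% in A549. The H1650 split of the epithelial list was 6 higher and 5 lower with no scaling factor and 5 higher and 6 lower with limma on log2(FPKM + 0.1). CDH1, which encodes E-cadherin and is repressed by ZEB and SNAI proteins, had 1230.2 ± 43.9 CPM in H1650 SRSF2 and 1309 ± 19.3 CPM in untreated H1650 cells (log2 -0.09, SE 0.04, edgeR adjusted p = 0.0434). In A549 it had 26.2 ± 1.62 CPM with SRSF2 and 38.2 ± 3.07 CPM without (log2 -0.54, SE 0.05, edgeR adjusted p = 8.86e-10). The fall of CDH1 was thus larger in A549, by a log2 difference of 0.45 (edgeR adjusted p = 7.93e-07). The keratin gene KRT19 had 625 ± 22.0 CPM in H1650 SRSF2 and 1304 ± 5.6 CPM in untreated H1650 cells (log2 -1.06, edgeR adjusted p = 1.38e-23), while the tight junction gene CLDN4 rose in H1650 to 1045 ± 22.3 CPM with SRSF2, against 596 ± 8.85 CPM without (log2 0.81, edgeR adjusted p = 5.42e-20). CRB3, a polarity gene, rose in H1650 (log2 1.41) and fell in A549 (log2 -0.78).

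The genes whose pattern over the 12 libraries was most like each member were found among 10793 candidates by the root mean square difference of centred log2 CPM. Closest to VIM was RAB3B (0.0789, against a spread of VIM itself of 1.45), followed by SQSTM1 (0.0815). KRT86 (0.129) and DUSP4 (0.2) came closest to ZEB1, whose spread was 1.89. ASMTL (0.109) came closest to FN1, whose spread was 0.487, and likewise rose in H1650 and fell in A549. EIF2AK2 (0.0963) and DOCK3 (0.118) were most like LOXL2, CALB2 (0.128) and VDR (0.136) most like THBS1, and PDGFB (0.12) and PPL (0.124) most like COL5A1. In absolute terms no gene came as close to the low members CDH2 and ZEB2, whose own spreads of 3.06 and 2.57 were the largest of the members. DIAPH2 (0.25) and C1S (0.257) were nearest to CDH2, and AKAP12 (0.395) and DNAJC12 (0.434) to ZEB2.

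Some members share exon bases with other genes of the table, and nothing says that the counting used strand, so reads of exons on opposite strands cannot be told apart. VIM-AS1, which shares 641 exon bases with VIM on the opposite strand, had 5.75 ± 0.37 CPM in H1650 SRSF2 and 9.0 ± 0.575 CPM in untreated H1650 cells (log2 -0.65, edgeR adjusted p = 6.45e-06), a fall where VIM rose. ZEB1-AS1 shares 366 exon bases with ZEB1 and had 5.51 ± 0.137 CPM in H1650 SRSF2 and 3.9 ± 0.208 CPM in untreated H1650 cells (log2 0.50, edgeR adjusted p = 0.00545). In untreated H1650 this antisense level was above that of ZEB1 itself (1.98 ± 0.191 CPM). ENTPD4 shares 120 exon bases with LOXL2 on the same strand and fell in H1650 (log2 -0.56, edgeR adjusted p = 2.70e-11) and in A549 (log2 -0.13, edgeR adjusted p = 0.0296). FSIP1 shares 448 exon bases with THBS1 on the opposite strand and had at most 1.66 ± 0.139 CPM in any group, in untreated A549 cells.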

How the data were processed

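Polyadenylated RNA of 12 libraries was sequenced. The authors deposited raw counts per gene, and the submitters' processing notes name fastp 0.20.1, featureCounts 2.0.0, STAR 2.7.7a and GRCh38; annotation release and strandedness are not given in the sources used here. The FPKM values the authors deposited come from the same counts, with a gene length equal to the genomic span (within 1 base) for 72.6% of the 16139 genes matched in GENCODE 29, and these values therefore served as alternatives only.

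Counts were tested with edgeR 4.0.16 (R 4.3.3): filterByExpr over 4 groups (15991 genes tested), TMM scaling, a quasi-likelihood fit of all 12 libraries with 1 mean per group (8 residual degrees of freedom) and Benjamini-Hochberg adjustment over all genes tested. All 8 members in the table passed the filter, CDH2 and ZEB2 only through their A549 libraries. With H1650 fitted alone, CDH2 was filtered out and 7 members were tested, ZEB2 among them. The approximate SE divides the log2 fold change by the root of F. It rests on a spread shared by all groups, although H1650 SRSF2 replicates differed more than others. With each line fitted alone, the SE of ZEB1 was 0.17 in H1650 and 0.05 in A549, against 0.14 and 0.07. For FN1 in H1650 the SE went the other way (0.041 alone, 0.046 shared). A gene name table (16076 IDs) and GENCODE 29 gave symbols, and GENCODE 29 coordinates and exon lengths. The fit was tested on simulated data. Total counts per library (23876899 to 32079027) set the floor of 3 counts; intervals and floors cover counting error only. Cell type markers and the measure of A549 RNA use plain library totals.

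Genes named were all members, up to 4 genes per list with the smallest adjusted p in either SRSF2 contrast, the 2 genes most like each member with at least 5 CPM on average (log2 CPM with a prior count of 2), and overlapping genes in the table. Some genes that this rule gives are not reported here. Members and lists were chosen with earlier results of these data known. Replicates of the same number were not treated as pairs, since the labels do not say that a number marks a shared culture or day. Correlations of their residuals ran from -0.02 to 0.024, which shows no shared effect but cannot settle how the cultures were set up. Alternatives were RLE scaling or none, a filter of 1 CPM or none, DESeq2 1.42.0, a replicate block, each line alone, limma 3.58.1 on log2(FPKM + 1) and log2(FPKM + 0.1), and leaving out each library. Dividing by the longest coding transcript was added after seeing the data.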

Additional observations from a re-analysis of the deposited data

Results flagged for a closer look

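The SRSF2 response differed between the lines for 7 of the 8 members, by edgeR's test of the difference H1650 minus A549 on the log2 scale. Of all genes tested, 47.5% were called in that test. Responses over all genes were larger in H1650, with a median absolute log2 fold change of 0.36 there and 0.16 in A549. FN1 differed by 1.747, with a rise in H1650 (1.261) and a fall in A549 (-0.486). LOXL2 differed by -1.023 and COL5A1 by -0.733, both with a fall in H1650 and a rise in A549. The rises of ZEB2, ZEB1 and VIM were larger in H1650, by 1.304, 1.272 and 0.609, but for ZEB2 and ZEB1 not on FPKM, where the ZEB1 difference was -0.013 and 0.052 with pseudocounts of 1 and 0.1. The fall of THBS1 was larger in H1650, by -0.228. The difference for ZEB2 rests on 43 counts in H1650 SRSF2 and 9 in untreated H1650 libraries.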

How the results depend on the processing

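The number of members called stayed at 7 in each line and for the difference, and at 8 between lines, with the replicate block. Since the labels do not pair same-numbered libraries, this block is an alternative only. With the block 9936 genes were called in H1650 and 5185 in A549, against 9956 and 5162 without it. Over the other settings 6 to 7 members were called in H1650 and 7 to 8 in A549. Leaving out 1 library gave 7 to 8 members in H1650, 6 to 8 in A549, 6 to 7 for the difference and 8 between lines. Over all genes it gave 9298 to 9977 calls in H1650, 4187 to 5511 in A549, 7149 to 7654 for the difference, 12963 to 13382 between untreated and 13155 to 13573 between SRSF2 lines.

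Of the recomputed fold changes of members, 791 kept direction and call, 9 lost the call, 10 gained it and 5 reversed. The 5 reversals were all differences between lines on FPKM. With log2(FPKM + 1), limma gave -0.061 for ZEB2, -0.013 for ZEB1 and -0.017 for CDH2, and with log2(FPKM + 0.1) it gave -0.374 for ZEB2 and -0.083 for CDH2. All but that of ZEB1 were called in the reversed direction (limma adjusted p = 2.94e-05 to 0.0248). The mean FPKM of ZEB2 is below either pseudocount in all 4 groups. CDH2 in A549 passed with the filter of 1 CPM (edgeR adjusted p = 0.0464). Low counts of ZEB2 and CDH2 in H1650 limit what could be detected there. In A549, limma on log2(FPKM + 1) called 4 genes for collagen crosslinking and processing, against 8 by edgeR, and 1 matrix protease or inhibitor, against 4. Ranks of the length-scaled levels moved in 24 of 64 recomputations.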
